A study of Homo sapiens with 18 samples.

Results

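The genes described here act on antisense oligonucleotides, on the RNA that such oligonucleotides cut, or on foreign nucleic acid. They are *RNASEH1*, *RNASEH2A*, *RNASEH2B*, *RNASEH2C*, *XRN1*, *XRN2*, *TLR3* and *TLR9*. They were chosen by name for these roles, and their transcript clusters, the probe groups that an array reports as a unit, were found by the gene symbol in the platform's annotation table. Of the 8 genes, 5 had a transcript cluster under their symbol, 1 each, among 53617 transcript clusters in all. The RNase H2 subunit genes *RNASEH2A*, *RNASEH2B* and *RNASEH2C* were not found under their symbols or gene IDs and were not analysed here.

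The arrays come from HCC1806 and HCC1395, established triple-negative breast cancer (TNBC) cell lines. Cells were treated for 48 h with *PART1* GapmeR 1, *PART1* GapmeR 2 or a negative control GapmeR, where *PART1* is a long non-coding RNA. Total RNA was read on the Affymetrix Human Gene 2.0 ST array, with 3 arrays in each of the 6 groups and 18 in all. Every group, the controls included, received a GapmeR, so no group shows cells without an oligonucleotide.

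GapmeRs are antisense oligonucleotides with a central stretch of DNA between modified ends. When this stretch pairs with an RNA, RNase H1, the product of *RNASEH1*, cuts the RNA strand of the hybrid, and 5′ to 3′ exonucleases can then degrade the fragment that starts at the cut. *XRN1* encodes the cytoplasmic exonuclease of this kind, which also degrades mRNA after its cap has been removed, and *XRN2* encodes the nuclear one, which also acts in transcription termination. *TLR3* and *TLR9* encode endosomal receptors for double-stranded RNA and for unmethylated CpG DNA that signal to interferon and NF-κB. RNase H2, a heterotrimer, removes ribonucleotides embedded in DNA and also cuts RNA in hybrids.

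Values are log2 signals after robust multi-array averaging (RMA), so a difference of 1 is a 2-fold difference. The median of an array lay between 4.04 and 4.13, which serves as a mark of a dim signal. The highest correlation between 2 arrays was 0.988, and no 2 arrays held identical values. The labels number the replicates without saying whether the cultures were separate, so the p-values rest on array-to-array spread, which could be technical. Among cell type markers, *EPCAM* averaged 11.2 in HCC1806 controls and 4.75 in HCC1395 controls, and *VIM* averaged 5.12 in HCC1806 controls and 9.31 in HCC1395 controls. Of 9 epithelial markers listed, 6 were measured. *KRT18*, *KRT5* and *CLDN4* were also higher in HCC1806 controls, by log2 differences of 3.15, 3.96 and 2.07. *KRT8* and *KRT14* differed by only -0.01 and 0.32. The other mesenchymal markers measured, *FN1*, *DCN* and *LUM*, were lower in HCC1806 controls, like *VIM*. The endothelial markers measured (3 of 4 listed) lay under the array median on all 18 arrays. Of 10 leukocyte markers listed, 3 were measured. *LYZ* was under the array median on all 18 arrays and *CD14* on 16. *CD68* averaged 9.45 in HCC1806 controls and 5.58 in HCC1395 controls, and over these 3 markers the mean log2 signal of an array ran from 5.10 to 5.51 in HCC1806 and from 3.68 to 4.13 in HCC1395. The part of these markers in the differences between the lines was not tested.

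The targeted RNA was read first. *PART1* in HCC1395 had log2 signals of 4.93, 4.72 and 5.36 with GapmeR 1 and of 4.86, 5.29 and 4.70 with GapmeR 2, against 5.45, 5.76 and 5.61 with the control. All 6 GapmeR arrays lay under the lowest control array, as for 1.52% of all transcript clusters in this line, with log2 fold changes of -0.60 ± 0.20 for GapmeR 1 and -0.66 ± 0.20 for GapmeR 2 (SE), and adjusted p-values of 0.895 and 0.701 in limma. In HCC1806, *PART1* had 4.04, 3.68 and 4.07 with GapmeR 1 and 4.03, 4.47 and 3.87 with GapmeR 2, against 3.88, 3.69 and 3.94 with the control. These signals are near or under the array median, and the log2 fold changes were 0.09 and 0.28. The HCC1806 arrays labelled GapmeR did not read *PART1* lower, but a signal this dim gives no useful check of the labels in this line, so directions drawn from these arrays rest on the labels.

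The first comparison asked whether the lines differ in these genes under the control GapmeR. *XRN1* was 1.78-fold lower and *TLR3* 1.53-fold lower in HCC1806 than in HCC1395. *RNASEH1*, *XRN2* and *TLR9* did not pass the test. Thus 2 of the 5 measured genes were called at an adjusted p under 0.05, both lower in HCC1806, where 29.3% of all transcript clusters were called and 14.9% were called lower. With so many transcript clusters differing between the lines, 2 of 5 is not a result about these genes as a group. All values of the 5 genes are shown in the plot of log2 signals by array.

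**Figure D1:**
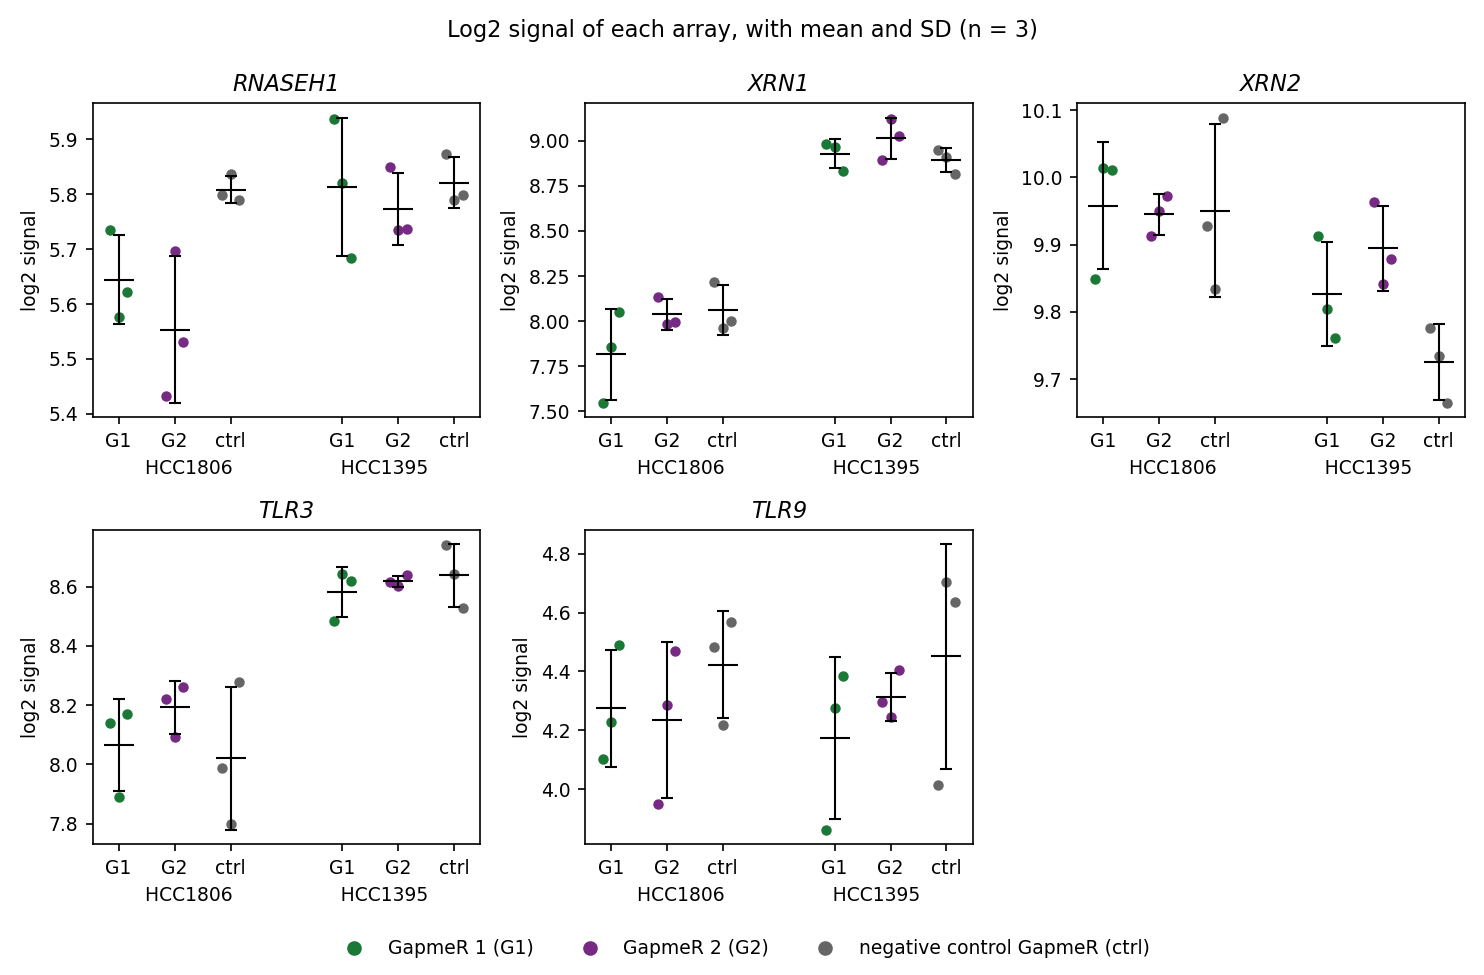
Log2 signal (y axis, a separate scale for each gene) of each array for the 5 measured genes, by cell line and GapmeR (x axis), with points for the 3 arrays of a group and bars for the mean ± SD. The 9 HCC1806 arrays lie under the 9 HCC1395 arrays for *XRN1* and *TLR3*, and in HCC1806 the 6 arrays labelled GapmeR lie under the controls for *RNASEH1*.

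*RNASEH1*, transcript cluster 16894001, carries the nuclease on which GapmeR action rests. In HCC1806 its log2 signals were 5.73, 5.58 and 5.62 with GapmeR 1, 5.43, 5.70 and 5.53 with GapmeR 2, and 5.80, 5.84 and 5.79 with the control. In HCC1395 they were 5.94, 5.82 and 5.68 with GapmeR 1, 5.85, 5.74 and 5.74 with GapmeR 2, and 5.87, 5.79 and 5.80 with the control. The control arrays of the lines overlapped, and their means of 5.81 ± 0.03 in HCC1806 and 5.82 ± 0.05 in HCC1395 (SD, n = 3) differed by -0.01 ± 0.10 on the log2 scale (HCC1806 minus HCC1395, SE), with a 95% interval from -0.23 to 0.21 and a limma adjusted p of 0.956. The interval leaves out a difference of 1.6-fold, the fold threshold used by the study.

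The sequence upstream of *RNASEH1* is shown because a second transcript starts there in the opposite direction and, unlike *RNASEH1*, was called between the lines. The 250 bases before the start of *RNASEH1* on the minus strand, at chr2:3558334-3558583 in RefSeq's GRCh38.p14, are given 5′ to 3′, with 4 GC boxes (GGGCGG or its reverse CCGCCC) and 1 ETS core (CGGAAG) in capitals.
RNASEH1 promoter: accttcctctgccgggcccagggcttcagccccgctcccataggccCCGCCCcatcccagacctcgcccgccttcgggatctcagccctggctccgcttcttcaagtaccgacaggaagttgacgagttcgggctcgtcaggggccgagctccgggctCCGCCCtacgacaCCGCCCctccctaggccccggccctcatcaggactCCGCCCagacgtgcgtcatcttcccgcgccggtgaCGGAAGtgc
The GC boxes begin 204, 92, 79 and 44 bases before the start and the ETS core 9 bases before it. A GC box on either strand was present in 45.0% of the 35116 promoter windows of RefSeq (250 bases before to 50 after a start) and an ETS core in 19.5%, so these matches are common and are given as a description of the letters.

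Within this stretch starts *RNASEH1-DT*, the divergent transcript of *RNASEH1*, on the plus strand, 53 bases from the *RNASEH1* start. It was named after its values were seen. The log2 signals of *RNASEH1-DT* in HCC1806 were 5.24, 4.92 and 5.20 with GapmeR 1, 5.13, 5.01 and 5.23 with GapmeR 2, and 5.07, 5.05 and 5.33 with the control. In HCC1395 they were 6.28, 5.89 and 6.15 with GapmeR 1, 6.17, 6.04 and 5.81 with GapmeR 2, and 6.01, 5.70 and 5.98 with the control. Every HCC1806 array was under every HCC1395 array, as for 12% of all transcript clusters. Between the controls *RNASEH1-DT* was 1.68-fold lower in HCC1806, a log2 difference of -0.75 ± 0.14 (SE; limma adjusted p = 0.000614). The pair thus showed a called difference for one transcript and none for the other, and the difference between these differences was not tested.

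*XRN1*, transcript cluster 16959925, had the largest difference between the lines of the 5 genes. In HCC1806 its log2 signals were 7.55, 7.86 and 8.05 with GapmeR 1, 8.14, 7.99 and 7.99 with GapmeR 2, and 8.22, 7.96 and 8.0 with the control. In HCC1395 they were 8.99, 8.96 and 8.84 with GapmeR 1, 8.90, 9.12 and 9.03 with GapmeR 2, and 8.95, 8.91 and 8.82 with the control. The highest HCC1806 array, at 8.22, was under the lowest HCC1395 array, at 8.82. No overlap between the 9 arrays of each line, in either direction, was seen for 23% of all transcript clusters, and with HCC1806 lower for 12%. The control means were 8.06 ± 0.14 in HCC1806 and 8.89 ± 0.07 in HCC1395 (SD, n = 3), a log2 difference of -0.83 ± 0.13 (SE) with a 95% interval from -1.10 to -0.56 and a limma adjusted p of 6.45e-05.

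The promoter of *XRN1*, the gene that differed most, is shown for the same comparison. It is on the minus strand at chr3:142448038-142448287 (GRCh38.p14), the 250 bases before the start, with GC boxes in capitals.
XRN1 promoter: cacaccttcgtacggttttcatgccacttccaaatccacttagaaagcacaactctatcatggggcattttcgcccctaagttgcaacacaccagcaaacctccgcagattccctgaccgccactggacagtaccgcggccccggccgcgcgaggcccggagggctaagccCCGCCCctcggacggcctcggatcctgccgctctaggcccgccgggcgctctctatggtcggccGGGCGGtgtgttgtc
The 2 GC boxes begin 79 and 15 bases before the start. The other motifs searched on both strands were the TATA box (TATAAA), the ETS core given above, the cAMP response element (TGACGTCA), the octamer (ATGCAAAT) and the core of interferon regulatory factor sites (AANNGAAA). None of them was found in the 300-base window of *XRN1*.

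*XRN2*, transcript cluster 16911943, is the nuclear relative of *XRN1*. Its control arrays read 9.93, 9.83 and 10.09 in HCC1806, against 9.78, 9.73 and 9.66 in HCC1395. These groups did not overlap, as was the case for 40.7% of all transcript clusters, and the log2 difference of 0.22 ± 0.10 (SE; 95% interval 0.01 to 0.44) had a limma adjusted p of 0.111. Over all treatments the ranges overlapped, from 9.83 to 10.09 in HCC1806 and from 9.66 to 9.96 in HCC1395. With a spread that depends on the signal and is robust to outlying transcript clusters, the same difference had a limma adjusted p of 0.033. The window of *XRN2* held a cAMP response element (TGACGTCA, in 1.85% of windows) that begins 54 bases before the start, and an ETS core.

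*TLR3*, transcript cluster 16972993, was read at 8.14, 7.89 and 8.17 with GapmeR 1, 8.22, 8.09 and 8.26 with GapmeR 2, and 7.99, 7.80 and 8.28 with the control in HCC1806. In HCC1395 it was read at 8.49, 8.64 and 8.62 with GapmeR 1, 8.61, 8.60 and 8.64 with GapmeR 2, and 8.74, 8.64 and 8.53 with the control. Again the lines did not overlap, with 8.28 the highest HCC1806 array and 8.49 the lowest HCC1395 array. The same was seen, with HCC1806 lower, for 12% of all transcript clusters. The control means were 8.02 ± 0.24 in HCC1806 and 8.64 ± 0.11 in HCC1395 (SD, n = 3), a log2 difference of -0.62 ± 0.13 (SE) with a 95% interval from -0.88 to -0.35 and a limma adjusted p of 0.000958. The interval spans the 1.6-fold threshold.

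The start of *TLR3* is shown as a description of its letters, and its part in the difference between the lines was not tested. It is given on the plus strand at chr4:186068926-186069175 (GRCh38.p14), from 230 bases before to 20 bases after the start, with the match to the core of sites for interferon regulatory factors, which act in the interferon response, in capitals.
TLR3 start: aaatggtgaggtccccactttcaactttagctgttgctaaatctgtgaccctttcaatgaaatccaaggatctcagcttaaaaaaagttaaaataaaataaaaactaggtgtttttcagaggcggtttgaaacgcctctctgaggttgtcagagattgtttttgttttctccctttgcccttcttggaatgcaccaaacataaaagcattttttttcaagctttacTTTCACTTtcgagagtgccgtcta
The match, TTTCACTT, reads AANNGAAA on the other strand and begins 4 bases before the start, so it spans the start itself. Of all promoter windows, 22.8% held such a match on either strand, so it is a common one.

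*TLR9*, transcript cluster 16954724, was dim. Its control arrays read 4.48, 4.22 and 4.57 in HCC1806, against 4.01, 4.70 and 4.64 in HCC1395, close to the array medians. Over all treatments the arrays ran from 3.95 to 4.57 in HCC1806 (median 4.29) and from 3.86 to 4.70 in HCC1395 (median 4.29). The lines overlapped fully, and the log2 difference between the controls was -0.03 ± 0.19 (SE; 95% interval -0.44 to 0.38, limma adjusted p = 0.947). At such a signal the array gives little information on *TLR9* in either line. Its window held a TATA box (11.5% of windows) that begins 21 bases before the start and an octamer (1.77% of windows) that begins 101 bases before it.

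The same line comparison was made with the signals of the GapmeR arrays, in the fit of 18 arrays that also served the control comparison. The 3 comparisons share its estimate of the spread, so their p-values are not independent. On the GapmeR 1 arrays *XRN1* differed by -1.11 ± 0.13 and *TLR3* by -0.52 ± 0.13 on the log2 scale (HCC1806 minus HCC1395, SE), with limma adjusted p-values of 2.72e-06 and 0.00392. On the GapmeR 2 arrays *XRN1* differed by -0.98 ± 0.13 and *TLR3* by -0.43 ± 0.13, with adjusted p-values of 1.15e-05 and 0.0146. Over the 3 comparisons the estimates thus ran from 1.78-fold to 2.16-fold lower in HCC1806 for *XRN1* and from 1.34-fold to 1.53-fold lower for *TLR3*. *XRN1* and *TLR3* were 2 of 5 genes in each comparison, beside 31.4% of all transcript clusters on GapmeR 1 arrays and 31.7% on GapmeR 2 arrays (16.2% and 16.3% lower). Neither gene was called for a difference between the lines in the GapmeR log2 fold change. *RNASEH1-DT* differed by -0.99 and -0.88. *RNASEH1* differed by -0.17 on GapmeR 1 arrays (adjusted p = 0.254) and by -0.22 on GapmeR 2 arrays (adjusted p = 0.122), and *XRN2* by 0.13 and 0.05 (adjusted p = 0.378 and 0.762). *TLR9* had no steady sign, with differences of 0.10 and -0.08.

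**Figure D2:**
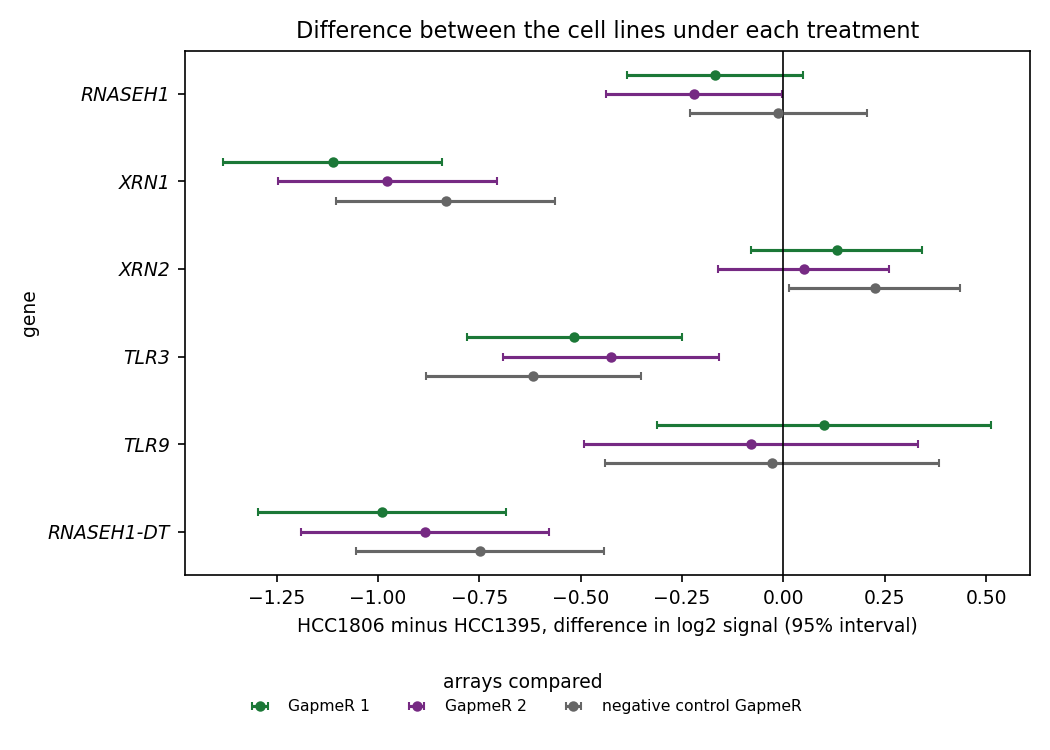
Difference in log2 signal between HCC1806 and HCC1395 (x axis, HCC1806 minus HCC1395, limma estimate with its 95% interval) for each gene (y axis), on GapmeR 1, GapmeR 2 and negative control arrays (3 against 3 arrays each). The intervals of *XRN1*, *TLR3* and *RNASEH1-DT* lie under 0 in every treatment, and those of *TLR9* include 0 in every treatment.

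The second question was whether the *PART1* GapmeRs changed these genes against the control GapmeR. None of the 5 genes passed the adjusted threshold with either GapmeR in either line. In limma 0 of 53617 transcript clusters (0%) did so in any of the 4 comparisons, so the count of 0 is that of the whole array. At an unadjusted p under 0.05 HCC1806 had 3203 transcript clusters with GapmeR 1 (5.97%) and 2721 with GapmeR 2 (5.07%), and HCC1395 had 2889 (5.39%) and 3608 (6.73%). None of the 5 genes was among them. The rule of the study, over 1.6-fold at an unadjusted p under 0.05, took 1.26% of all with GapmeR 1 and 1.04% with GapmeR 2 in HCC1806, 0.955% and 1.06% in HCC1395, and again none of the 5.

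*RNASEH1* had its lowest values on the HCC1806 arrays labelled GapmeR. The means were 5.64 ± 0.08 with GapmeR 1 and 5.55 ± 0.13 with GapmeR 2, against 5.81 ± 0.03 with the control (SD, n = 3). All 6 GapmeR arrays, the highest at 5.73, were under the lowest control array at 5.79, as were those of 1.36% of all transcript clusters in this line. The log2 fold changes were -0.16 ± 0.12 for GapmeR 1 and -0.26 ± 0.12 for GapmeR 2 (SE). The 95% intervals ran from -0.44 to 0.11 and from -0.53 to 0.02, and the limma adjusted p-values were 0.875 and 0.965, so neither value passed the test. In HCC1395 the *RNASEH1* log2 fold changes were -0.01 for GapmeR 1 and -0.05 for GapmeR 2 (adjusted p = 0.997 and 0.939), with GapmeR and control arrays overlapping. The difference between the lines in these log2 fold changes was -0.16 ± 0.15 for GapmeR 1 and -0.21 ± 0.15 for GapmeR 2 (SE; adjusted p = 0.912 and 0.862).

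*XRN1* had a log2 fold change of -0.24 ± 0.15 on HCC1806 arrays labelled GapmeR 1 (SE; adjusted p = 0.86), with a wide spread from 7.55 to 8.05 among the 3 arrays. With GapmeR 2 the log2 fold change of *XRN1* in HCC1806 was -0.02, and in HCC1395 the values were 0.04 for GapmeR 1 and 0.12 for GapmeR 2. *XRN2* in HCC1395 had 3 of 3 GapmeR 2 arrays over the control range, at 9.96, 9.84 and 9.88, against 9.78, 9.73 and 9.66 for the control. Such groups did not overlap for 12.7% of all transcript clusters in that comparison, and the log2 fold change was 0.17 ± 0.10 (SE; adjusted p = 0.769). The other *XRN2* log2 fold changes were 0.10 with GapmeR 1 in HCC1395, and 0.01 with GapmeR 1 and -0.01 with GapmeR 2 in HCC1806.

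For the receptors, *TLR3* had log2 fold changes of 0.05 with GapmeR 1 and 0.17 with GapmeR 2 in HCC1806 and of -0.06 and -0.02 in HCC1395. *TLR9* had values of -0.15 and -0.19 in HCC1806 and of -0.28 and -0.14 in HCC1395 (SE 0.17 in HCC1806 and 0.20 in HCC1395). The limma interval of each *TLR9* value ran from a negative to a positive change. The comparisons within a line share their control arrays, so a common sign with both GapmeRs is not an independent repeat. Of the 20 intervals over the 5 genes and 4 comparisons, 19 lay inside a 1.6-fold change in either direction. The exception was *TLR9* with GapmeR 1 in HCC1395, whose interval ran from -0.73 to 0.18. For *RNASEH1*, *XRN1*, *XRN2* and *TLR3* a 1.6-fold change thus lay outside every interval, and changes inside the intervals could not be told from the spread between arrays. None of the 5 genes was called for a difference between the lines in the GapmeR log2 fold change, as was the case for 0% of all transcript clusters.

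**Figure D3:**
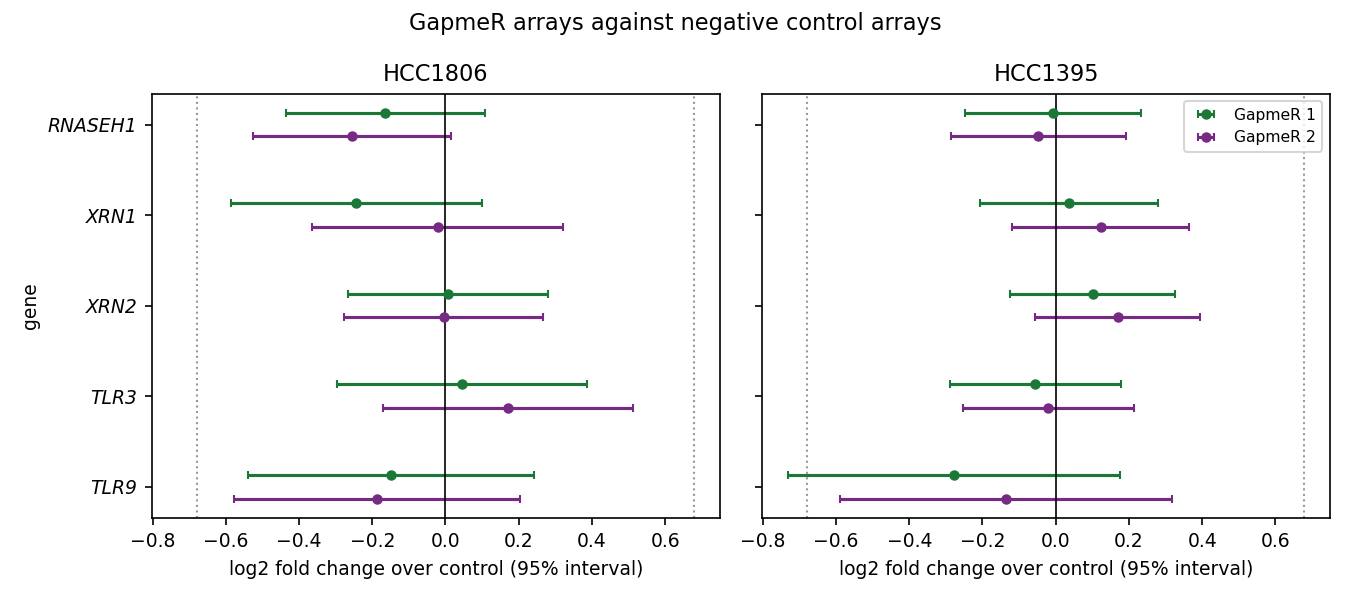
Log2 fold change of each GapmeR over the negative control GapmeR (x axis, limma estimate with its 95% interval, 3 against 3 arrays) for the 5 genes (y axis), with HCC1806 on the left and HCC1395 on the right. Dotted lines mark a 1.6-fold change, and every interval includes 0.

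Genes that work beside these 5 were taken from 9 lists, of which 111 of 173 genes had a transcript cluster under their symbol. Between the control arrays 43 of the 111 were called higher and 24 lower in HCC1806, beside 14.4% and 14.9% of all transcript clusters. All listed genes carry a symbol, and of the 16098 transcript clusters with 1 symbol 21% were called higher and 21.8% lower. The median log2 difference was 0.12, against a median of -0.001 over all transcript clusters, whose quartiles were -0.27 and 0.26.

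Decapping, which exposes the 5′ end that XRN1 degrades, had called genes in both directions. Of 10 measured genes, 4 were lower and 3 higher in HCC1806, beside 21.8% and 21% of transcript clusters with 1 symbol. The median log2 difference was -0.11. *DCP1B* and *DCP1A*, which encode activators of the decapping enzyme, averaged 3.50 ± 0.20 and 6.46 ± 0.16 in HCC1806 controls, against 7.12 ± 0.05 and 8.37 ± 0.10 in HCC1395 controls (SD, n = 3). The log2 differences were -3.62 ± 0.18 for *DCP1B* and -1.91 ± 0.11 for *DCP1A* (SE; limma adjusted p = 1.81e-10 and 9.35e-10), and *DCP1A* was 3.75-fold lower. In HCC1806 *DCP1B* was under the array median of 4.08, so its difference is set against a dim signal. With the array median in place of that signal *DCP1B* was at least 8.24-fold lower. *PATL1*, a scaffold between deadenylation and decapping, and *EDC3*, an enhancer of decapping, were lower by log2 differences of -1.27 and -0.99. These 4 genes did not overlap between the 9 arrays of each line, as for 12% of all transcript clusters with HCC1806 lower. *DCP1A*, for example, ran from 6.28 to 6.79 in HCC1806 and from 8.26 to 8.56 in HCC1395. The genes that were higher in HCC1806 include *DCP2*, the decapping enzyme itself, at 8.27 ± 0.14 in HCC1806 and 7.61 ± 0.14 in HCC1395 (adjusted p = 0.00086), and *DDX6*, a helicase of decapping complexes, at 10.6 ± 0.15 in HCC1806 and 10.1 ± 0.05 in HCC1395 (adjusted p = 0.00204). *DCP2* and *DDX6* were chosen after their values were seen. They were the only 2 higher genes without HCC1806 control replicate 1 or HCC1395 control replicate 2.

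The opposite route of decay, from the 3′ end, had 9 of 22 genes higher and 1 lower in HCC1806. Of transcript clusters with 1 symbol, 21% were called higher and 21.8% lower. The exosome core genes *EXOSC1* and *EXOSC8* were higher by log2 differences of 1.45 and 1.39 (limma adjusted p = 1.66e-07 and 4.03e-06), as was *PNPT1*, a mitochondrial exonuclease, by 0.80. The lower gene was *ISG20*, an interferon-induced exonuclease, with -0.97. Its HCC1806 control mean of 4.18 was near the array median. The count of lower genes was 3 on GapmeR 1 arrays, 5 on GapmeR 2 arrays and 2 without HCC1806 control replicate 2, *ISG20* among them each time. Of 14 deadenylase genes listed, only 5 were measured. All 5 were called, 3 higher and 2 lower, beside 21% and 21.8% of transcript clusters with 1 symbol. *CNOT9*, named after its values were seen, lost its call on GapmeR 1 and GapmeR 2 arrays (limma adjusted p = 0.0541 and 0.0973). On those arrays 2 genes were higher, *CNOT11* and *PAN3*, and 2 lower. *PARN* and *PAN2*, which encode deadenylases, were lower, with log2 differences of -1.47 and -1.09, and *CNOT11* and *PAN3*, which encode subunits of deadenylase complexes, were higher by 1.20 and 0.46.

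Of the partners of RNase H and factors of RNA-DNA hybrids, 5 of 8 were higher and 1 was lower in HCC1806. The median log2 difference was 0.50, and 21% and 21.8% of transcript clusters with 1 symbol were called higher and lower. The higher genes included *SAMHD1*, a dNTP hydrolase (1.33), *DNA2*, a nuclease and helicase (1.30), *AQR*, a helicase that resolves hybrids (0.58), and *PCNA*, the replication clamp (0.47, limma adjusted p = 0.0126). The call of *PCNA* was lost on GapmeR 1 and GapmeR 2 arrays (adjusted p = 0.0519 and 0.0513), and without HCC1806 control replicate 3 or HCC1395 control replicate 3 (adjusted p = 0.0585 and 0.0576). In each of these 4 cases 3 genes of the list were higher, *AQR*, *SAMHD1* and *DNA2*, and not 5. The lower gene, *TOP3B*, a topoisomerase named after its values were seen, lost its call on GapmeR 1 arrays and without HCC1806 control replicate 1, HCC1806 control replicate 3 or HCC1395 control replicate 3, while on GapmeR 2 arrays 2 genes were lower. Of the partners of XRN2 in termination, 2 of 9 were measured, and *CDKN2AIPNL*, which encodes an XRN2-binding protein, was higher by 1.12 (limma adjusted p = 1.97e-06).

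Among genes of the endosomal receptor pathway, 5 of 20 were higher and 3 lower, beside 21% and 21.8% of transcript clusters with 1 symbol. The median log2 difference was 0.01. The endosomal proteases that process such receptors differed in both directions, with *CTSS* higher and *LGMN* and *CTSK* lower at log2 differences of -1.02 and -0.92 (limma adjusted p = 4.95e-07, 1.73e-06 and 0.000735). In HCC1806 controls *CTSK* averaged 4.19, near the array median. *CTSS* averaged 6.03 in HCC1806 controls and 3.13 in HCC1395 controls, under the array median of 4.08, and was at least 3.86-fold higher with that median in place of the dim signal. *IRF3*, a transcription factor downstream of TLR3, was higher by 0.65. The count of higher genes in this list moved with the arrays used. It was 6 on GapmeR 1 arrays, 4 on GapmeR 2 arrays and 3 without HCC1806 control replicate 2. It was 4 without HCC1806 control replicate 1 or 3, or without HCC1395 control replicate 1 or 2. *CTSS* and *IRF3* were among the higher genes each time.

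Cytosolic sensors had 3 of 9 genes higher and 3 lower, beside 21% and 21.8% of transcript clusters with 1 symbol. The DNA sensor gene for cGAS, *MB21D1* on the array, averaged 8.33 ± 0.14 in HCC1806 and 5.35 ± 0.17 in HCC1395 (SD, n = 3), 7.91-fold higher in HCC1806 (limma adjusted p = 1.54e-10). *TMEM173*, the gene of its adaptor STING, was 1.83-fold lower in HCC1806, with 5.82 ± 0.05 in HCC1806 and 6.69 ± 0.22 in HCC1395 (adjusted p = 0.000108). *AIM2*, another DNA sensor gene, averaged 5.85 in HCC1806 controls and 2.46 in HCC1395 controls, under the array median, and was at least 3.40-fold higher with that median in place of the dim signal. *EIF2AK2*, the gene of the double-stranded RNA sensor PKR, was higher by 1.33. *DDX58*, the gene of the RNA sensor RIG-I, and *DHX58*, which encodes the related LGP2, were lower like *TLR3*, with log2 differences of -0.54 and -0.72 (limma adjusted p = 0.016 and 0.00593). Both were named after their values were seen, and the call of *DDX58* was lost without HCC1806 control replicate 3 or HCC1395 control replicate 3. The called sensor genes thus lay in both directions.

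Interferon and NF-κB outputs had 8 of 15 genes higher and 5 lower in HCC1806, beside 21% and 21.8% of transcript clusters with 1 symbol. The median log2 difference was 0.78. *MX2*, an antiviral GTPase, averaged 7.35 ± 0.14 in HCC1806 and 3.75 ± 0.47 in HCC1395, a log2 difference of 3.59 ± 0.25 (SE; limma adjusted p = 9.7e-09). The HCC1395 signal was under the array median, and with that median in its place *MX2* was at least 9.61-fold higher. *IFIT3* and *IFIT2*, interferon-induced RNA-binding proteins, were higher by 1.85 and 1.38. *IFI44L*, another interferon-induced gene, was lower, with a log2 difference of -2.77 and 4.46 ± 0.19 in HCC1806 and 7.22 ± 0.23 in HCC1395. Its HCC1806 signal was near the array median. *RSAD2* and *CXCL10*, named after their values were seen, were among the 5 lower genes, with HCC1806 controls under the array median, and lost their calls on GapmeR 1 arrays (adjusted p = 0.32 and 0.484) and GapmeR 2 arrays (adjusted p = 0.145 and 0.299). The count of lower genes was 3 on GapmeR 1 arrays and without HCC1806 control replicate 3, HCC1395 control replicate 1 or HCC1395 control replicate 2. Of the genes for oligonucleotide uptake and binding, 6 of 20 were higher and 5 lower, beside the same 21% and 21.8%. The median log2 difference was 0.11. *LRP1*, an endocytic receptor, and *PSPC1*, a paraspeckle protein that binds phosphorothioate oligonucleotides, were lower, with log2 differences of -1.93 and -1.31, and *TSG101*, a sorting factor of late endosomes, and *LRPPRC*, an RNA-binding protein, were higher by 1.16 and 0.88. The counts of this list were 5 higher and 6 lower on GapmeR 1 arrays and 4 higher and 6 lower on GapmeR 2 arrays. *LRP1*, *PSPC1*, *TSG101* and *LRPPRC* were called each time.

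**Figure D4:**
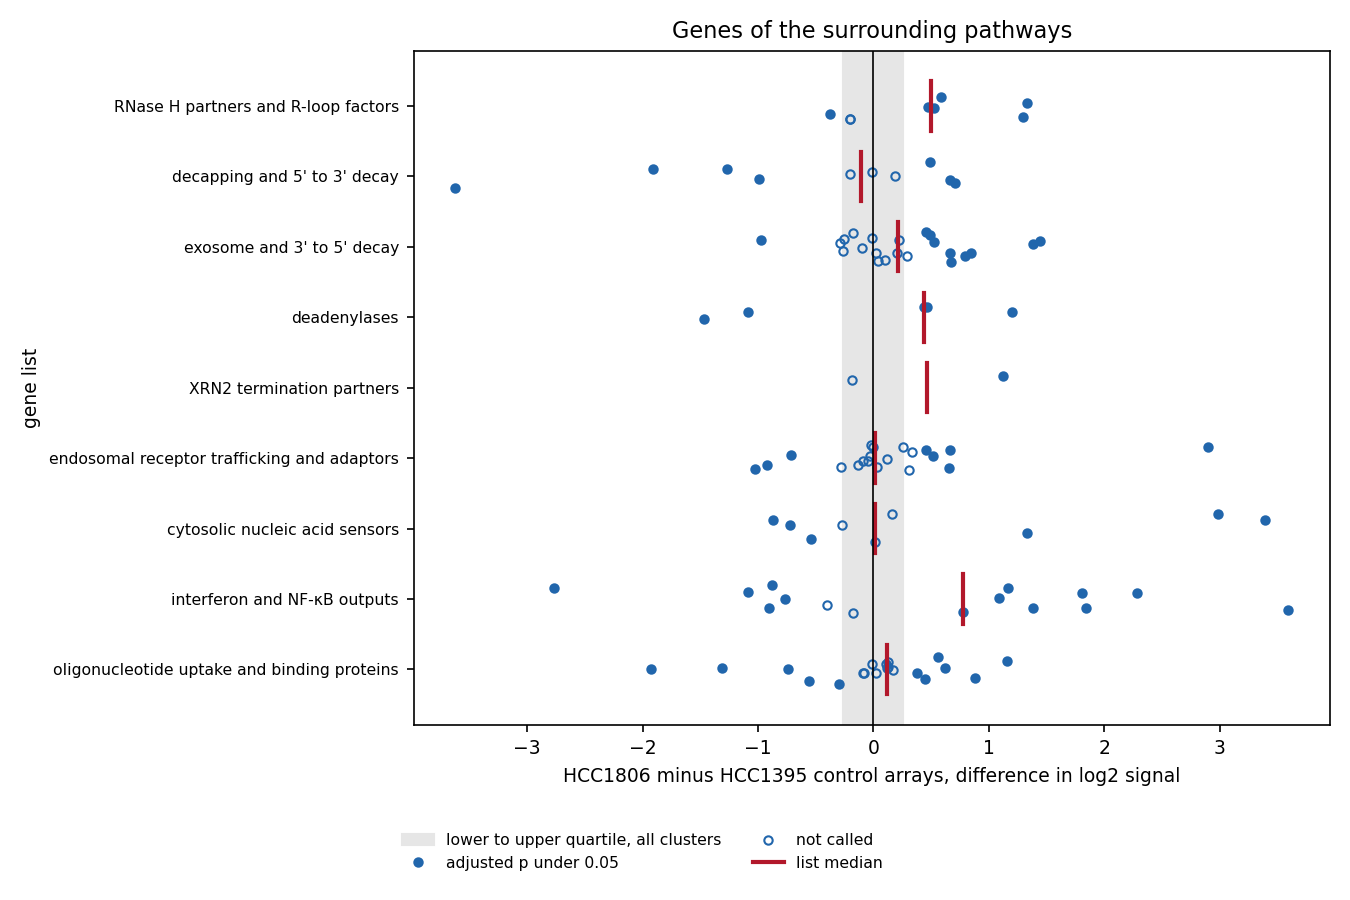
Difference in log2 signal between HCC1806 and HCC1395 control arrays (x axis, HCC1806 minus HCC1395, limma estimate) for each measured gene of the 9 lists (y axis, points spread vertically for legibility). Filled points passed an adjusted p under 0.05, red bars mark list medians, and the grey band runs from -0.27 to 0.26, the quartiles of all transcript clusters. The outermost points, *DCP1B* at -3.62 and *MX2* at 3.59, each rest on a signal under the array median in 1 line, HCC1806 for *DCP1B* and HCC1395 for *MX2*.

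Against the control GapmeR, none of the 111 genes was called with either GapmeR in either line (limma, 0% of all transcript clusters). The log2 fold changes ran from -0.46 to 0.63 and from -0.44 to 0.55 for GapmeR 1 and GapmeR 2 in HCC1806 and from -0.62 to 0.42 and from -0.47 to 0.73 in HCC1395. At an unadjusted p under 0.05 there were 2, 2, 2 and 4 of the 111 genes. They were *EXOSC4* (0.36) and *EEA1* (-0.38) with GapmeR 1 in HCC1806, *PAN2* (-0.44) and *XRCC6* (-0.29) with GapmeR 2 in HCC1806, *CD14* (-0.62) and *CTSS* (-0.41) with GapmeR 1 in HCC1395, and *TOP1* (0.32), *GRN* (-0.47), *TMEM173* (-0.33) and *MX2* (0.73) with GapmeR 2 in HCC1395, with log2 fold changes in parentheses. The smallest p of a list outside these was that of *DCP1B* with GapmeR 1 in HCC1395, with a log2 fold change of -0.22 and an unadjusted p of 0.0507. The changes of *CD14*, *CTSS* and *MX2* in HCC1395 rest on dim signals, with control means of 3.98, 3.13 and 3.75, under the array median. Among the outputs of interferon and NF-κB, the median log2 fold changes were 0.17 and 0.04 for GapmeR 1 and GapmeR 2 in HCC1806 and -0.002 and 0.01 in HCC1395, beside medians between -0.01 and 0.01 over all transcript clusters. With GapmeR 1 in HCC1806 the quartiles of all transcript clusters were -0.127 and 0.145. No gene of this list had an unadjusted p under 0.05 there.

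The genes whose pattern was most like that of *RNASEH1* were sought among the 16097 other transcript clusters with a symbol, by Pearson's r over the 18 arrays after the mean of each line was taken away. They were *COPS7B* (r = 0.83), *SLC9A9-AS1* (r = 0.77) and *COLEC10* (r = 0.75). Within the lines the r of *COPS7B* was 0.87 in HCC1806 and 0.74 in HCC1395 (9 arrays each). The arrays share their line and treatment, and the 3 genes are the highest of a long search, so the values are a description.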

How the data were processed

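The deposited table holds log2 signals of 53617 transcript clusters on 18 arrays, made by the authors with RMA (Affymetrix Expression Console, per the submitters' notes, version not given). No normalization was added. The number of arrays, 3 a group, limits the precision. The platform's table gives 1 symbol to 16098 transcript clusters and none to 37519. For the array's genome build, none is given in the sources used here. Promoter sequences are RefSeq's for GRCh38.p14.

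Groups followed the labels. Lines were compared in a limma 3.58.1 fit (R 4.3.3) of all 18 arrays, and each GapmeR with the control in a fit of the 9 arrays of its line, both two-sided. The method of Benjamini and Hochberg adjusted the p-values over the 53617 transcript clusters. The difference between lines in GapmeR log2 fold changes came from the 18 arrays. The study's methods name the Transcriptome Analysis Console. The fits were tested on simulated data. Intervals are 95% intervals of limma. Gene lists were described by counts and medians with no set test, and a gene with several transcript clusters was read from its brightest. The members, lists and tests were chosen with earlier results of these data known. Named genes are the members, *PART1*, up to 4 genes with the smallest p-values past the threshold in each list and comparison, or 1 where none passed, and the 3 genes most like *RNASEH1*. Exceptions are marked as chosen after their values were seen. Of the genes with the smallest p where no gene passed, those at an unadjusted p under 0.05 are named, with the nearest to it. Alternatives covered normalization, filters, the variance model, the arrays fitted, the replicate number as a block, the call rule and each array left out. The plots were made in matplotlib 3.10.9 (pandas 2.3.3, Python 3.11.15). Sequences of the GapmeRs are not given here.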

Additional observations from a re-analysis of the deposited data

How the results depend on the processing

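The calls of *XRN1* and *RNASEH1-DT* between the lines held under every alternative run and with each array left out in turn. That of *TLR3* held too, except where a call also required over 1.6-fold. That rule left 1 of the 5 genes, *XRN1*, and 43 of 67 list genes. *XRN2* passed between the lines with a trend in the spread and robust moderation (adjusted p = 0.033). Its difference was 0.22 in either case. With only transcript clusters that have a symbol, 7427 were called between the lines, since fewer were tested, and 1 with GapmeR 1 in HCC1395. For GapmeR 2 in HCC1395, 1 was called in the fit of 18 arrays and 1 without moderation, and the cause was not tested.

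At an unadjusted p under 0.05, 3203 and 2721 transcript clusters passed for GapmeR 1 and GapmeR 2 in HCC1806, 2889 and 3608 in HCC1395, and 3052 and 3488 for the difference between the lines. Of the list genes 2, 2, 2 and 4 passed, and 1 and 1 for the difference. Over 1.6-fold as well, 674, 557, 512 and 570 transcript clusters passed, and 1 list gene with GapmeR 2 in HCC1395 (*MX2*). With 1 array left out the calls ran from 0 to 6 for GapmeR 1 in HCC1806 (6 without GapmeR 1 replicate 3), from 0 to 3 for the difference with GapmeR 1 (3 without the same array), and from 0 to 1 for that with GapmeR 2 (1 without HCC1395 GapmeR 2 replicate 3).

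No value whose sign turned was called, and the cause of the turns was not tested. Quantile normalization gave -0.018 for *XRN2* with GapmeR 1 in HCC1806 and -0.00017 for *XRN1* with GapmeR 1 in HCC1395, and the GapmeR 1 arrays gave a line difference of 0.10 for *TLR9*. The line comparison on GapmeR 1 and GapmeR 2 arrays was chosen after seeing the data. With 1 array left out, the line difference ran from -0.028 to 0.014 for *RNASEH1* and from -0.25 to 0.10 for *TLR9*. In HCC1806 the log2 fold changes ran from -0.050 to 0.077 for *XRN2* and from -0.066 to 0.17 for *TLR3* with GapmeR 1, and from -0.063 to 0.064 for *XRN2* and from -0.071 to 0.058 for *XRN1* with GapmeR 2. In HCC1395 they ran from -0.069 to 0.057 for *RNASEH1* and from -0.00082 to 0.083 for *XRN1* with GapmeR 1, and from -0.074 to 0.031 for *TLR3* with GapmeR 2.

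With the replicate number as a block, 2 of the 5 genes were called between the lines, *XRN1* at an adjusted p of 0.000503 and *TLR3* at 0.000658, 16028 transcript clusters were called against 15722 without the block, and none with either GapmeR. Deviations of arrays with the same number correlated at -0.007 to 0.0928 in HCC1806 and -0.0025 to 0.111 in HCC1395 (means 0.0585 and 0.0366). With different numbers they correlated at -0.0891 to 0.0181 and at -0.099 to 0.0758 (means -0.0293 and -0.0183). The same-number means were thus somewhat higher in both lines. The labels do not say that the numbers pair the arrays, so the main fits left them out. Whether the arrays are paired was not tested.

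*TLR9* and *CD14* in both lines, in HCC1806 *PART1*, *DCP1B*, *RSAD2* and *CXCL10*, and in HCC1395 *AIM2*, *CTSS* and *MX2* were near or under the array median, so their values there carry little information. The same holds in HCC1395 for *IRF7* and *CXCL8*, which are counted as higher in HCC1806 in their lists. In HCC1806 *ISG20*, *CTSK* and *IFI44L* had control means of 4.18, 4.19 and 4.46, also near the array median. Their line differences are thus set against a dim signal.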
